A study of Papio hamadryas with 11 samples.

Results

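The 4 mature arms of the miR-143 and miR-145 precursors were followed through small RNA libraries from near-term fetal baboon liver. hsa-miR-143-3p, hsa-miR-143-5p, hsa-miR-145-5p and hsa-miR-145-3p were taken by name from a table of 1921 human mature miRNA names, of which 645 had reads. Rows were chosen by their total reads, the highest for a name, and each of the 4 names stood on 1 row only, so this left nothing to choose. The cluster itself was singled out with earlier results of the same libraries known, and the tests below are no independent support for its selection. The study compared livers of fetuses of obese mothers (MO, n = 5, 3 female and 2 male) with livers of fetuses of control mothers (CON, n = 6, 3 female and 3 male), in Papio hamadryas at 0.9 of gestation. The groups were set by the mothers, and the labels name no gene, agent or dose altered in the fetuses. How the mothers became obese, and whether any fetuses shared a mother, is not stated in the labels, so each p-value reflects only how far these samples vary.

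A miRNA hairpin is cut into 2 strands, the 5p and the 3p arm, of which usually 1 is kept in an Argonaute protein and the other is degraded. The genes of miR-143 and miR-145 lie side by side and are transcribed together. They are known as abundant miRNAs of smooth muscle cells, pericytes and fibroblasts, where serum response factor and myocardin switch them on. miR-145-5p represses KLF4 and KLF5, which hold smooth muscle cells in a less differentiated state, and miR-143-3p represses ELK1. In mice, raised hepatic miR-143 lowers the oxysterol-binding protein ORP8 and weakens insulin signalling to AKT in the liver.

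MO libraries held 660569 to 767137 reads on known miRNAs and CON libraries 247288 to 319919, with no overlap. The ratio of the mean depths was 2.52 (two-sided exact permutation test, p = 0.00216, the smallest it can give). The library numbers in the labels also separated the groups, running from 67 to 71 in MO and from 55 to 60 in CON. The labels name no batch. Library number, depth and maternal obesity cannot be told apart. Levels are given in CPM, reads scaled to a depth of 1000000 per library, after TMM scaling, a correction for differences in library composition. The hepatocyte list, headed by miR-192-5p and miR-122-5p, summed to between 379261 and 505083 CPM in MO and between 400907 and 543509 CPM in CON, so the defining miRNAs of liver were abundant in every library.

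miR-143-3p was the cluster's main product and ranked 2 or 3 by reads in every library. It stood at 125473, 111689, 89618, 87658 and 90383 CPM in MO replicates 1 to 5, and at 73173, 76916 and 89680 CPM (lowest, median and highest) in CON. The groups overlapped only through the highest CON library, which lay above the MO libraries 3 and 4. The mean was 100964 ± 16833 CPM in MO and 78579 ± 6120 CPM in CON (SD, n = 5 and 6), a log2 change of 0.36 (SE 0.11). The edgeR quasi-likelihood test gave an adjusted p of 0.0534 over 218 tested miRNAs, just short of the threshold of 0.05. Over all 218, 4.59% passed that threshold as higher in MO and 6.42% as lower.

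The call on miR-143-3p depended on the setting. It passed in 6 of the other 11 settings, with adjusted p from 0.0158 in DESeq2 to 0.130 with a replicate block. It also passed without CON replicate 2 (adjusted p = 0.0460), without MO replicate 4 (0.0365) or without MO replicate 5 (0.0420) in edgeR. In each of these fits the log2 change was positive. In bulk liver, a changed number of cells of a type and a changed amount of RNA per cell cannot be told apart. This holds for this arm and for those that follow.

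miR-143-5p, the strand of miR-143 that is mostly discarded, was close to the limit of detection. It had 13, 4, 4, 3 and 2 reads in MO replicates 1 to 5, and 0, 1 and 2 reads (lowest, median and highest) in CON. The 13 reads of MO replicate 1 stood apart, and the other 10 libraries held 4 reads or fewer. The 0 reads of CON replicate 5 allow a level of up to 10.7 CPM (3 reads, counting error only), which lies above the level of every library except MO replicate 1. The arm reached the expression filter in none of the 11 libraries. Fitted without that filter over 645 names, it had a log2 change of 0.86 (SE 0.68, edgeR adjusted p = 0.552).

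miR-145-5p, the arm of miR-145 with most of its reads, ranked from 90 to 116 among the names in each library. Its level was 370, 307, 231, 189.9 and 174 CPM in MO replicates 1 to 5, and 246, 268 and 316 CPM (lowest, median and highest) in CON. MO libraries lay on both sides of the CON range, the females 1 and 2 near its top or above it and the other 3 below it. The mean was 254.5 ± 82.5 CPM in MO and 271 ± 25.2 CPM in CON (SD). The log2 change was -0.09 (SE 0.19, edgeR adjusted p = 0.846), and it turned to 0.04 without MO replicate 4 and to 0.05 without MO replicate 5.

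miR-145-3p, the passenger strand of miR-145, was the only one of the 3 tested arms to pass. It had 112, 86, 95, 64 and 67 reads in MO replicates 1 to 5, or 169, 113, 124, 86.8 and 105 CPM. In CON it had 9, 12.5 and 18 reads (lowest, median and highest), or 32.1, 43.4 and 67.8 CPM. Every MO library lay above every CON library, as was the case, higher in MO, for 3.21% of the tested miRNAs. The mean was 119.7 ± 30.8 CPM in MO and 45.7 ± 12.8 CPM in CON (SD), a 2.62-fold difference (log2 1.39, SE 0.23, edgeR adjusted p = 0.00229). By log2 change and by p, miR-145-3p ranked 3 of 218.

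All 11 libraries were over the filter's level of 31.3 CPM, counted without TMM scaling, for miR-145-3p, so the arm did not enter the test through MO alone. With every library thinned at random to 247288 reads, miR-145-3p kept 42, 29, 30, 24 and 19 reads in MO replicates 1 to 5. Thinned CON libraries held between 8 and 18. The log2 change at that equal depth was 1.37 (SE 0.27, edgeR adjusted p = 0.00432). The call held in all 11 fits that left out 1 library, with log2 changes from 1.27 to 1.53.

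**Figure D1:**
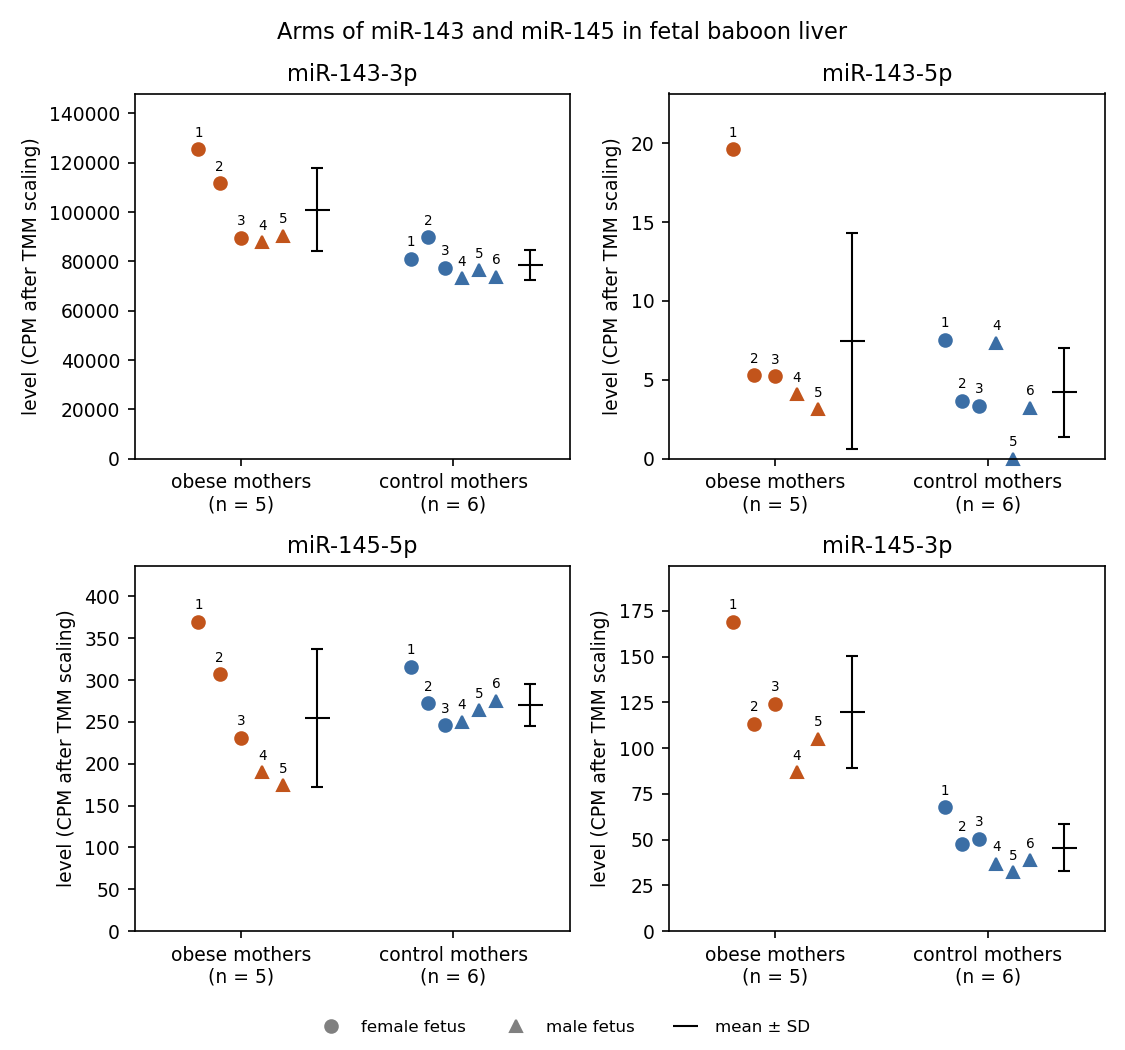
Level of each arm (CPM after TMM scaling, linear axes from 0) in each library of the MO (obese mothers) and CON (control mothers) groups, with replicate numbers, fetal sex by symbol and the mean ± SD beside the points. miR-145-3p runs from 86.8 to 169 CPM in MO, above the 32.1 to 67.8 CPM of CON, while the groups overlap for the other 3 arms.

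Together the 4 arms took 10.1% ± 1.78 of all miRNA reads in MO and 7.87% ± 0.389 in CON (SD). Nearly all of these were miR-143-3p, at 99.6% of the cluster's reads in each group. The order of the arms by reads was the same in all 11 libraries, with miR-143-3p first, then miR-145-5p, miR-145-3p and miR-143-5p. These are reads per arm, with no correction for how readily each sequence joins to the adapters, so they do not give the number of molecules of each arm.

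**Figure D2:**
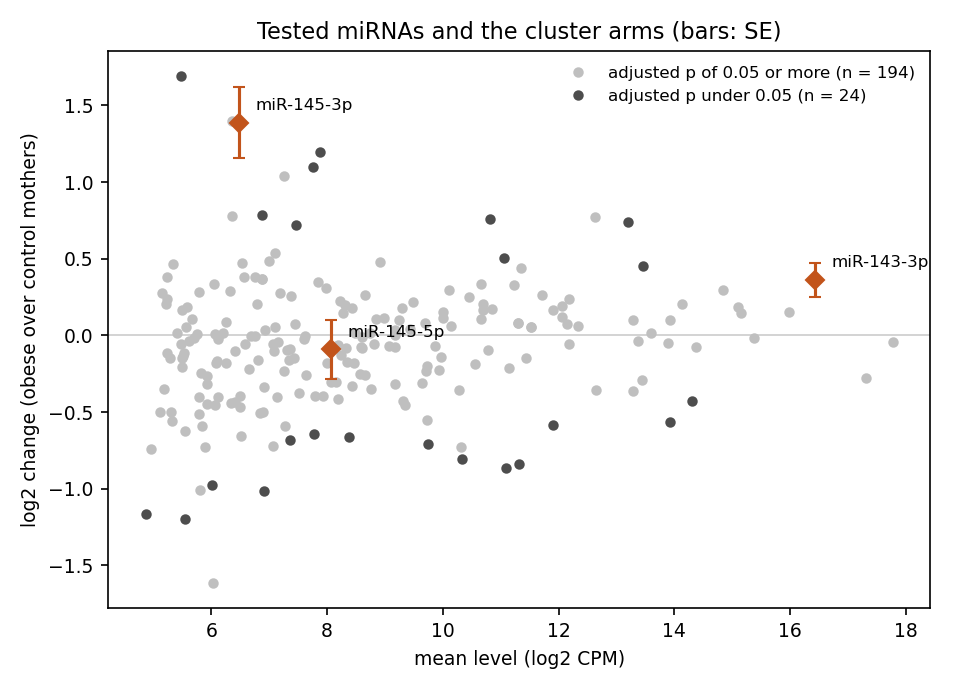
Log2 change (MO over CON, edgeR) against mean level (log2 CPM) for the 218 tested miRNAs, with the 3 tested arms as diamonds with SE bars. miR-143-3p sits among the most abundant miRNAs at 0.36, miR-145-5p at -0.09 and miR-145-3p at 1.39, among the highest changes.

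The balance of the miR-145 arms differed between the groups, and since both arms are read in the same library this ratio does not depend on how libraries are scaled. The libraries had 2.19, 2.71, 1.86, 2.19 and 1.66 reads of 5p per read of 3p in MO replicates 1 to 5, and 4.67, 6.25 and 8.22 (lowest, median and highest) in CON. No MO library reached the lowest CON value, as was the case for 2.44% of the 41 loci tested. Summed over libraries, the 2 arms had 906 and 424 reads in MO, and 458 and 77 reads in CON.

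The ratio was tested with limma at the 41 loci where both arms passed the filter, on log2((5p + 0.5)/(3p + 0.5)). miR-145 changed by -1.50 (SE 0.19, limma adjusted p = 9.78e-05), so the 5p to 3p ratio in MO was 0.354 times that in CON. It was the only one of the 41 past the threshold (2.44%), and it had both the lowest p and the largest change in size. The next in size was miR-335, at -1.06 (SE 0.49, adjusted p = 0.286). The next by p was miR-181a, at 0.78 (SE 0.26, limma adjusted p = 0.219). Its MO ratios all lay above its CON ratios, the only other locus without overlap. Without CON replicate 4 the number of loci past the threshold was 5, and without CON replicate 6 it was 2. The miR-145 call held under all 8 other settings (adjusted p 9.52e-05 to 0.0124) and in all 11 fits that left out 1 library (log2 -1.59 to -1.41).

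As a share of the miR-145 reads, the 5p arm made up between 62.4% and 73.0% in MO and between 82.4% and 89.2% in CON. The 95% Wilson interval of the highest MO share ran from 67.9% to 77.6%, and that of the lowest CON share from 73.8% to 88.5%. The intervals of this nearest pair of libraries overlap, and whether the pair differs beyond counting error was not tested. Reads without molecular identifiers are not independent molecules, and these intervals cover counting error only.

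**Figure D3:**
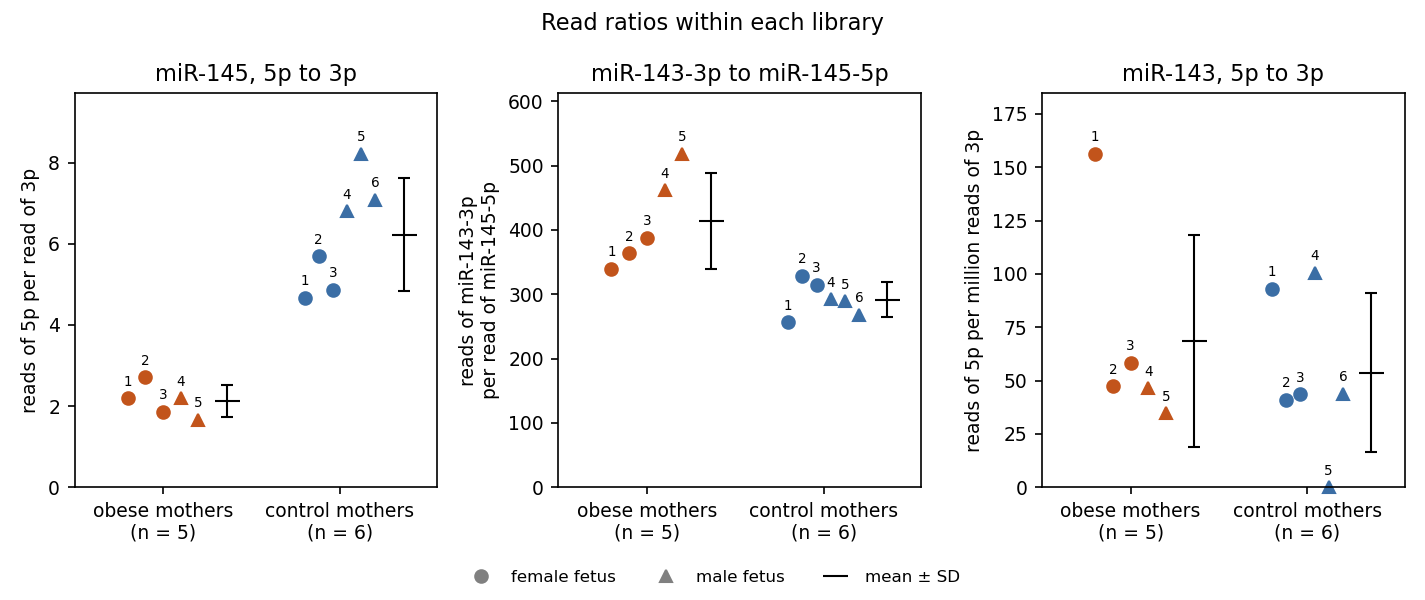
Read ratios within each library (linear axes from 0) for the arms of miR-145, for miR-143-3p over miR-145-5p, and for the arms of miR-143, the last per 1000000 reads of 3p. MO libraries lie below CON libraries in the first panel (1.66 to 2.71 against 4.67 to 8.22) and above them in the second (339 to 519 against 256 to 329), while the groups overlap in the third.

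The major arms of the 2 precursors also differed in balance. miR-143-3p had 339, 363, 387.5, 461.6 and 519 reads per read of miR-145-5p in MO replicates 1 to 5, and 256, 291 and 329 (lowest, median and highest) in CON. Each MO library lay above each CON library, and how often other pairs of miRNAs separate in this way was not examined. The nearest libraries were MO replicate 1 and CON replicate 2. The 95% Wilson interval of the miR-143-3p share of both arms' reads was 99.667% to 99.741% in the former. It was 99.620% to 99.758% in the latter, which had 74 reads of miR-145-5p, so the intervals overlap. Whether this pair differs beyond counting error was not tested. The mean log2 ratio was 8.67 ± 0.25 in MO and 8.17 ± 0.14 in CON (SD, n = 5 and 6), a difference of 0.50. A two-sided exact permutation test gave p = 0.00216, the smallest it can give, and 0.00325 adjusted over the 3 ratios of arms that were compared. The same test on the miR-145 5p to 3p ratio gave the same p and adjusted p.

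For miR-143 the balance of the arms could not be resolved at this depth. MO libraries held 26 reads of 5p in all against 358589 of 3p, or 72.5 reads of 5p per 1000000 of 3p, and CON libraries 7 against 132881, or 52.7. Without MO replicate 1 the MO value was 47.2. The exact permutation test gave p = 0.991 for a difference of -0.0041 on the log2 scale, and the sign of that difference turned with the pseudocount.

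**Figure D4:**
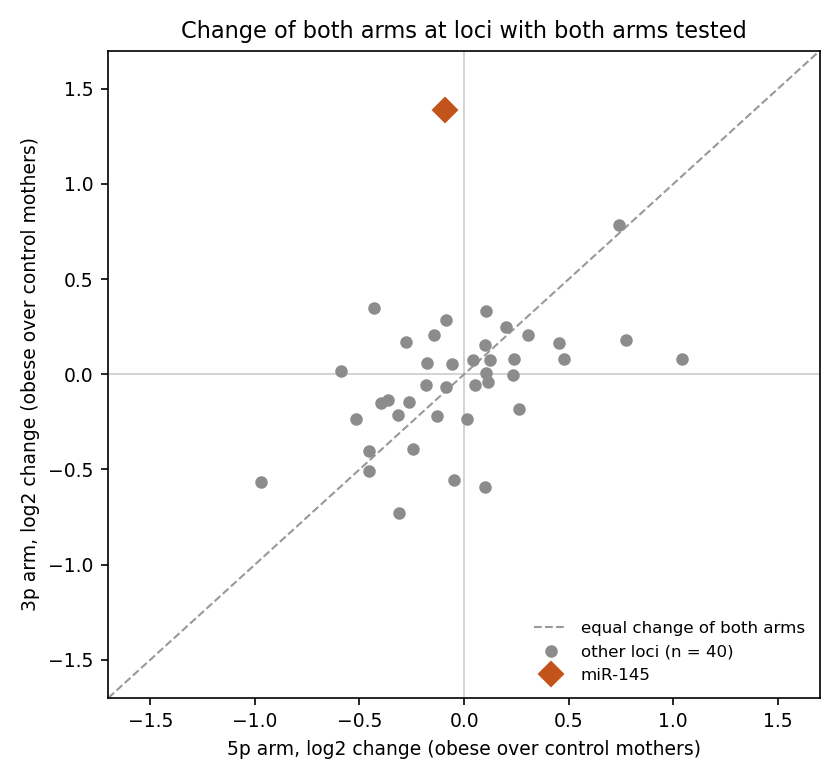
Log2 change (MO over CON, edgeR) of the 3p arm against that of the 5p arm at the 41 loci with both arms tested, the dashed line marking equal change. The 40 other loci scatter about the line, and miR-145 lies far above it, at 1.39 for 3p and -0.09 for 5p.

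Minor strands past the threshold moved in both directions. Of the 41 minor arms, 2 rose (miR-145-3p itself and miR-411-3p) and 1 fell (miR-378a-5p), with a median log2 change of -0.04. The major arms of the latter 2 loci passed in the same direction (miR-411-5p 0.74, miR-378a-3p -0.57). Of the 41 major arms, 2 rose and 1 fell, with a median of 0.01. Over all 218 tested, 4.59% passed as higher in MO and 6.42% as lower, and the median was -0.05. At the endothelial miR-126 locus the 5p to 3p ratio changed by 0.29 (SE 0.15), and at the stellate miR-199a locus by 0.46 (SE 0.24), both in the other direction from miR-145 and neither past the threshold (limma adjusted p = 0.286 for each).

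By fetal sex, miR-145-3p rose with maternal obesity in females and in males. Female livers had 136 ± 29.5 CPM in MO and 55.4 ± 10.8 CPM in CON (SD, n = 3 each; log2 1.29, SE 0.26, edgeR adjusted p = 0.0201). Male livers had 96.0 ± 13.0 CPM in MO and 35.9 ± 3.45 CPM in CON (n = 2 and 3; log2 1.41, SE 0.30, edgeR adjusted p = 0.0293). Of the tested miRNAs, 5.96% passed in females (2.75% as higher in MO) and 4.13% in males (1.83% as higher). The difference between the effects, males minus females, was 0.12 (SE 0.39, adjusted p = 0.974).

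Calls within a sex were less secure than the call over all livers. The female call was lost without CON replicates 1, 2 or 3 or MO replicates 1 or 2 (adjusted p 0.0608 to 0.103), while the log2 change stayed between 1.15 and 1.46. The male call was lost without CON replicates 1, 2, 3, 4 or 6 or MO replicates 2, 3, 4 or 5 (adjusted p 0.0518 to 0.171), with log2 changes from 1.32 to 1.60. Fitted on males alone the log2 change was 1.44 (edgeR adjusted p = 0.251).

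miR-145-5p gave values of opposite sign in the sexes. Female livers had 303 ± 69.4 CPM in MO and 278 ± 35.5 CPM in CON, a log2 change of 0.12 (SE 0.20, adjusted p = 0.807). Male livers had 182 ± 11.1 CPM in MO and 263 ± 12.5 CPM in CON, a log2 change of -0.53 (SE 0.23, adjusted p = 0.222). Both MO males lay below all 3 CON males, as was the case for 20.2% of the tested miRNAs, so this separation is common at this sample size. The MO females overlapped the CON females. The difference between the effects was -0.65 (SE 0.30, unadjusted p = 0.0522, edgeR adjusted p = 0.575). No miRNA passed the test of that difference in edgeR (0.00% of 218), 0 did in DESeq2 and 0 in limma-voom, and 14 (6.42%) had an unadjusted p under 0.05.

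miR-143-3p stood at 108927 ± 18086 CPM in MO females and 82715 ± 6283 CPM in CON females (log2 0.40, SE 0.13, edgeR adjusted p = 0.0880). In males the levels were 89020 ± 1926 CPM in MO and 74443 ± 1688 CPM in CON (log2 0.26, SE 0.14, edgeR adjusted p = 0.357). The female groups overlapped, and the MO males lay above the CON males, as they did for 14.2% of the tested miRNAs. Scaled by total counts instead, the female change was 0.52 and passed (adjusted p = 0.0329), as it did without MO replicate 3 (0.0241).

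**Figure D5:**
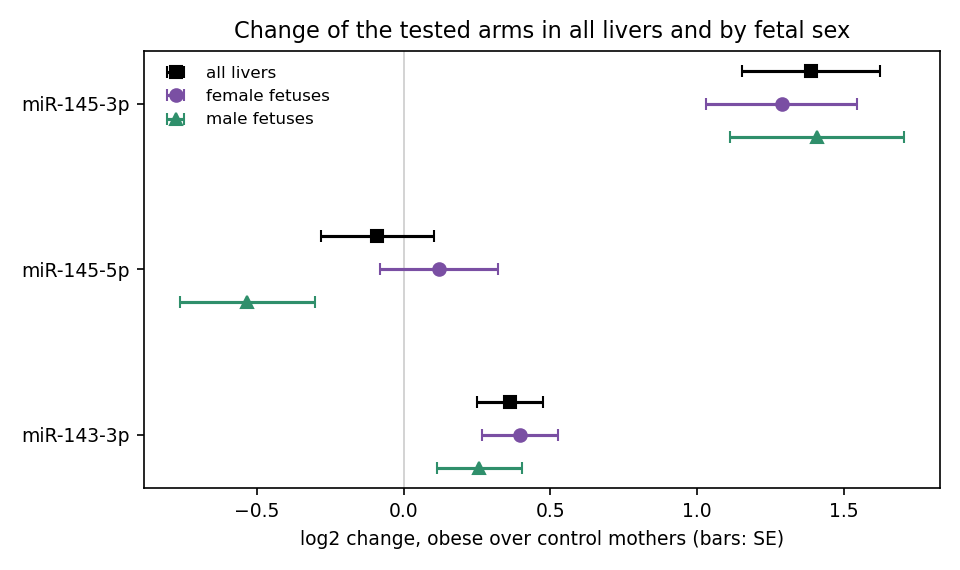
Log2 change (MO over CON, edgeR, SE bars) of the 3 tested arms in all livers and within female and male fetuses. miR-145-3p lies between 1.29 and 1.41 in all 3 estimates, and miR-145-5p at 0.12 in females and -0.53 in males.

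Males had lower values than females for all 3 tested arms when maternal group was held fixed, and none passed. The log2 difference was -0.54 for miR-145-3p (SE 0.19, unadjusted p = 0.0138, edgeR adjusted p = 0.323), -0.38 for miR-145-5p (SE 0.17, adjusted p = 0.455) and -0.21 for miR-143-3p (SE 0.10, adjusted p = 0.490). Over all tested miRNAs 0.00% passed this comparison in edgeR, the one tool used for it, and 22 (10.1%) had an unadjusted p under 0.05. In CON the 5p to 3p ratio of miR-145 was 6.80 to 8.22 in the 3 males and 4.67 to 5.69 in the 3 females, without overlap. Of the 41 loci, 4.88% were separated in that direction and 4.88% in the other, and the difference was not tested. In MO it was 1.66 and 2.19 in the 2 males and 1.86 to 2.71 in the 3 females, with overlap.

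MO replicate 1, a female, had the highest level of all 4 arms in the MO group. Without it the log2 change of miR-145-3p was 1.27 (edgeR adjusted p = 0.00497) and that of the miR-145 arm ratio was -1.52 (limma adjusted p = 0.000575).

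After the mean of each maternal group was subtracted from the log2 levels, Pearson's r over the 11 livers was 0.85 between miR-143-3p and miR-145-5p, 0.64 between the 2 arms of miR-145, and 0.63 between miR-143-3p and miR-145-3p. Without that subtraction the same values were 0.37, 0.05 and 0.85. Among the 217 miRNAs compared with miR-145-3p after the subtraction, miR-145-5p ranked 14 and miR-143-3p ranked 17. Outside the cluster, the miRNAs most like miR-145-5p in these livers were miR-199b-5p (r = 0.90) and miR-199a-3p (0.83). miR-199a-3p and miR-199b-3p are listed with identical counts. Those most like miR-143-3p were miR-30a-5p (0.85), miR-23a-3p (0.73) and miR-199b-5p (0.72). For miR-145-3p they were miR-378a-5p (0.89), miR-378a-3p (0.75) and miR-199a-3p (0.73), again tied with miR-199b-3p. All points share their libraries, depth and scaling, and 11 livers leave such values imprecise. Between miR-145-3p and miR-378a-5p the value without the subtraction was -0.33, and the log2 change of miR-378a-5p was -0.97 (edgeR adjusted p = 0.0479). Fetal sex was not subtracted. With maternal group held fixed, every miRNA named in this paragraph had lower values in males, none past the threshold in edgeR. The log2 difference ran from -0.93 for miR-199b-5p and -0.84 for miR-378a-5p to -0.20 for miR-30a-5p. The part of fetal sex in these correlations was not tested.

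None of the other tested miRNAs of mesenchymal or smooth muscle cells passed. Of 8 tested mesenchymal and stellate cell miRNAs, 0 rose and 0 fell (median log2 0.27). They included miR-100-5p at 3683 ± 315 CPM in MO and 3073 ± 640.2 CPM in CON (log2 0.26) and miR-10b-5p (log2 0.77, SE 0.63, adjusted p = 0.466). Of 5 tested miRNAs of the smooth muscle phenotype, 0 rose and 0 fell (median -0.01), among them miR-21-5p (0.12), induced in dedifferentiating smooth muscle, and miR-26a-5p (-0.01). Over all tested miRNAs 10 rose (4.59%), 14 fell (6.42%) and the median was -0.05, so 0 calls among 8 or 5 is near those shares. The largest change of the mesenchymal set was that of miR-199b-5p (log2 1.04, SE 0.42, edgeR adjusted p = 0.157). miR-199a-5p had 0.48 (SE 0.22, edgeR adjusted p = 0.204), and miR-214-3p (-0.10) and miR-125b-5p (-0.09) lay below 0.

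The summed level of the mesenchymal list ran from 10786 to 34038 CPM in MO and from 8616 to 23424 CPM in CON. It was highest in MO replicate 2 and, among controls, in CON replicate 1. By far the most variable member was miR-10b-5p, at 8233 ± 9409 CPM in MO and 4817 ± 4489 CPM in CON (SD). Striated muscle miRNAs summed to between 48.7 and 969 CPM in MO, again highest in MO replicate 2, and to between 29.2 and 97.9 CPM in CON. Their most abundant, miR-1 and miR-133a, averaged 109 ± 179 and 106 ± 196 CPM in MO, and 17.5 ± 14.6 and 14.4 ± 8.34 CPM in CON (SD). None of the 7 names passed the filter, and miR-208a, typical of heart muscle, had no reads. Without MO replicate 2, miR-145-3p had a log2 change of 1.41 (edgeR adjusted p = 0.00803). That library had 111689 CPM of miR-143-3p and 307 CPM of miR-145-5p. For both arms it lay below MO replicate 1 and above MO replicates 3 to 5. The part of muscle tissue in these levels was not tested.

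In the lists of other cell types, 1 of 2 endothelial miRNAs rose, miR-126-5p (log2 0.46, edgeR adjusted p = 0.0476), while miR-126-3p had 0.17. Of 6 hepatocyte miRNAs, 1 fell, miR-885-5p (-1.01, adjusted p = 0.00370), and of 5 leukocyte miRNAs 1 fell, miR-146a-5p (-0.66, adjusted p = 0.0117), both in edgeR. miR-192-5p and miR-122-5p had log2 changes of -0.05 and -0.28, and miR-142-5p of leukocytes -0.31, none of them past the threshold. None of 4 erythroid miRNAs passed (median -0.35, miR-486-5p -0.29 and miR-451a -0.55), and none of 4 biliary epithelial ones (median -0.16, miR-200b-3p -0.26 and miR-200a-3p -0.07). The endothelial sums ran from 12643 to 17097 CPM in MO and from 9476 to 14290 CPM in CON, and the part of a changed share of endothelial or mesenchymal cells in the level of miR-143-3p or miR-145-3p was not tested. Of 8 tested miRNAs tied to hepatic insulin signalling, a list without miR-143-3p, 1 fell, miR-378a-3p (-0.57, adjusted p = 0.0122), and the median was -0.04.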

How the data were processed

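Small RNA was sequenced from 11 fetal livers. Per the labels' protocols, RNA came from a Qiagen miRNeasy kit and libraries from the Illumina TruSeq small RNA kit. Read counts per mature miRNA and precursor were deposited by the authors without scaling, with human miRBase names, and the submitters' processing notes name build hg18. Baboon reads were thus counted under human names. No aligner or mismatch limit is named in the labels. The 2234 rows stood 2 times in the table and were used once. A name listed under several precursors was represented by its most abundant one. The table of predicted miRNAs was not used.

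edgeR 4.0.16, run in R 4.3.3, tested the counts after TMM scaling and its default filter (10 reads at the median depth), by the quasi-likelihood test with Benjamini-Hochberg adjustment over the 218 miRNAs tested. Effects within a sex were contrasts of the 4 group-by-sex means, and males were compared with females with maternal group as a term. Arm ratios were tested in limma 3.58.1, and 3 single ratios with two-sided exact permutation tests. Alternatives were RLE factors, total counts, DESeq2 1.42.0, limma-voom, no filter, a sex term, a replicate block, leaving out the most abundant miRNA or miR-143-3p, summed precursor rows, thinned libraries, other pseudocounts and each library left out. The test scripts were checked on simulated data. Lists covered mesenchymal and stellate, smooth muscle, striated muscle, hepatocyte, endothelial, erythroid, leukocyte, biliary epithelial and insulin-related miRNAs. The rule for naming took the 4 arms, the 3 miRNAs most like each tested arm, and from each list those past the threshold and the 2 most abundant. Further members of the mesenchymal list were named after the results were seen. The members and lists were chosen with earlier results of these data known.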

Additional observations from a re-analysis of the deposited data

Results flagged for a closer look

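MO replicate 1 lay far from the other MO libraries for miR-143-5p, at 19.6 CPM where the others ran from 3.14 to 5.28 CPM, and for the miR-143 arm ratio, at 156 reads of 5p per 1000000 of 3p where they ran from 34.7 to 58.3. Both rest on 13 reads. CON replicate 1 stood apart in the summed mesenchymal list (23424 CPM, the other controls 8616 to 12535). MO replicate 5 did so in the summed smooth muscle list (59814 CPM, the other MO libraries 41680 to 46570). Most of that sum was miR-26a-5p (mean 42202 CPM in MO), and CON replicate 3 was higher still at 62367 CPM. MO replicate 2 stood apart in the summed striated muscle list (969 CPM, the other MO libraries 48.7 to 103). These are 5 of 34 groups of values examined, and chance marks about 1 in 20. None of the levels of miR-143-3p, miR-145-5p or miR-145-3p, nor the ratios of miR-145 5p to 3p and of miR-143-3p to miR-145-5p, held such a library.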

How the results depend on the processing

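The rise of miR-145-3p over all livers and the fall of the miR-145 5p to 3p ratio passed under every setting run. The labels do not state that replicate numbers pair the livers. Correlations of same-numbered livers ran from -0.17 to 0.30, with 2 of 5 MO livers most like their own number, which cannot settle whether they were paired. With a replicate block, 17 miRNAs passed, against 24 without it and 20 in the same 10 livers with no block, a setting added after the data were seen. Counts within a sex moved most. In males 27 passed with no filter, 18 in DESeq2 and 0 with males fitted alone, against 9. In females 20 passed when fitted alone, against 13. The test of the male log2 change (MO over CON) against the female one gave 11 with no filter, against 0. With 1 library left out, females gave 0 to 25, males 0 to 13 and the arm ratios 1 to 5 calls, and the arm ratios 11 over all 179 loci with reads on both arms. The cause was not tested. Leaving out MO replicate 4 or 5 leaves 1 MO male, assumed to vary like the other groups. The MO minus CON difference in the miR-143 log2 arm ratio was 0.54 with a pseudocount of 0.1 and 0.49 in thinned libraries. It was -0.30 with a pseudocount of 1 and -0.63 with 2, and ran from -0.32 to 0.18 with 1 library left out. For miR-145-3p, the male log2 change (MO over CON) minus the female one was 0.12, and it turned to -0.14 with total counts. That value ran from -0.059 to 0.29 with 1 library left out. The change of miR-145-5p ran from -0.22 to 0.051 with 1 library left out. CON libraries gave miR-145-3p 9 to 18 reads, which limits the precision of its fold change.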
